A study of Mus musculus with 8 samples.

Results

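Homeobox genes outside the Hox clusters and the Pax genes were compared in the oviduct between mice given genistein (Gen) as newborns and their controls. The group was chosen by name, as every noncontrol probe whose gene name in the array files begins with Pax, Emx, Lhx, Msx, Dlx, Nkx, Meis, Pbx, Irx, Otx, Prrx or Barx and then a number. That gave 93 of the 41174 probes on the array and 57 gene names of 27962, 2 of which (Dlx6as and Dlx6os1) are noncoding transcripts of the Dlx6 locus. Controls were CD-1 females injected subcutaneously with corn oil on PND1–PND5, and Gen-treated mice were CD-1 females injected on the same days with Gen in corn oil at 50 mg/kg/day. At 6–8 weeks of age the mice of both groups were superovulated and mated, and those with a plug were used. Oviducts were taken on GD2 (pregnancy day 2), 48 hr after hCG. There were 4 independent biological replicates per group, and the sources used here do not say how many mice each held. Every replicate was measured on its own Agilent whole mouse genome array with 1 dye (Cy3). The whole oviduct was used, so epithelium, stroma and muscle were measured together. Controls and Gen-treated mice were hybridized on separate slides, so treatment and slide cannot be told apart.

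A homeobox encodes the homeodomain, a DNA-binding fold shared by many transcription factors that set the identity of regions and cell types. Pax proteins bind DNA through a paired domain, and some carry a homeodomain as well. In the female reproductive tract, Lhx1, Pax2 and Emx2 are needed for the Müllerian duct, the embryonic tube from which the oviduct, uterus and upper vagina form, and Pax8 marks the secretory cells of the adult oviduct epithelium. Pbx and Meis proteins belong to the TALE class and act as DNA-binding partners of Hox and other homeodomain proteins. Msx and Dlx proteins act in epithelial and mesenchymal patterning, and Irx, Nkx and many Lhx genes are best known from the nervous system, heart, gut and gonad.

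Signals below are scaled intensities, in arbitrary units, of probes 60 bases long; a group's signal is the mean of its 4 arrays on the log2 scale. Differences are Gen minus control on the log2 scale with their SE, and adjusted p-values are from limma with Benjamini-Hochberg adjustment over 41173 probes, with a call at an adjusted p under 0.05. A probe counts as detected on an array when the scanner software marked most of its spots, or as many as not, as well above background, and a test over detected probes takes only those detected on all 4 arrays of a group (28955 probes). By that measure 38 probes of 26 genes were measured on all 8 arrays. A further 12 genes had a probe detected on all 4 Gen arrays but on fewer than 4 control arrays, among them Dlx4, Irx2, Irx6, Lhx2, Lhx4, Lhx8, Nkx1-2, Nkx2-5, Pax2, Pax5 and Pax6. In 7 genes (Dlx2, Irx1, Lhx3, Lhx5, Nkx2-2, Nkx2-3 and Nkx6-3) no probe reached that level on all 4 arrays of either group. In the last 12 genes (Barx1, Dlx1, Dlx3, Dlx6os1, Nkx2-9, Otx1, Otx2, Pax1, Pax3, Pax4, Pax7 and Pax9) every probe was at background on every array. The Otx family was therefore not detected on these arrays, and in the Pax family the probes of 5 of 9 genes stayed at background.

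**Figure D1:**
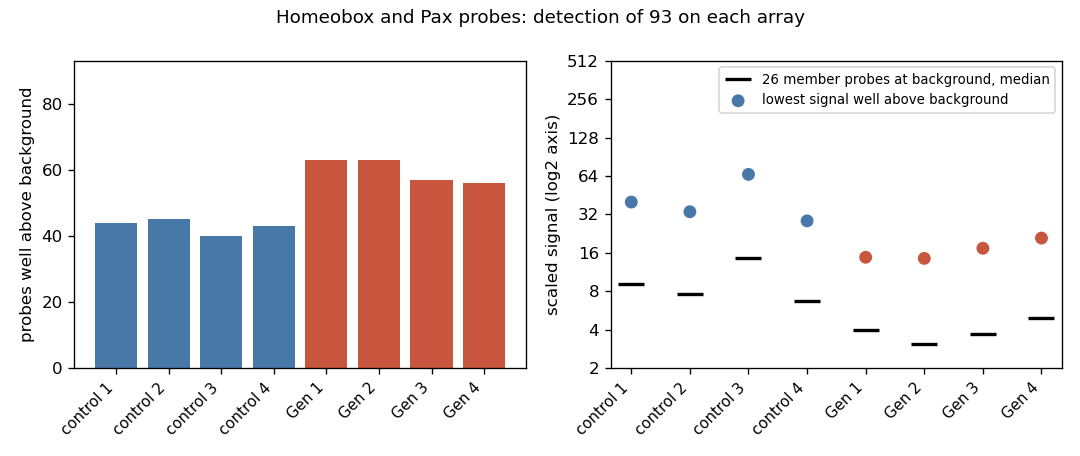
Number of the 93 probes detected on each array (left, bars from 0) and, on a log2 axis, the scaled signal of the 26 probes at background (dashes, median) with the lowest signal of a detected probe on the array (circles) (right). Control arrays (blue) had 40–45 probes detected and Gen arrays (red) 56–63, and both background measures were lower on every Gen array than on any control array.

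Detection differed between the groups for dim probes, on the whole array as well as here. Control arrays detected between 40 and 45 of the 93 probes, and Gen arrays between 56 and 63. Among all detected probes, the lowest signal was 28.5–65.9 for control arrays and 14.5–20.9 for Gen arrays. The 26 probes at background on every array had a median signal between 6.72 and 14.6 in controls and between 3.12 and 4.98 in Gen-treated mice, ranges that do not overlap. Of these 26 probes, 19 (73.1%) were called lower in Gen, beside 63.4% of all 7908 probes at background on the array. No level or fold change is given for them. Over all 93 probes 25 (26.9%) were called, 20 lower and 5 higher, beside 16.2% of all probes tested. The 20 lower calls comprised the 19 probes at background and Dlx5.

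The 3 genes that mark the Müllerian lineage in this group, Emx2, Pax8 and Pax2, did not pass the test between Gen-treated mice and controls. The first 30 bases of the probes that stand for them follow, to identify which part of each transcript was read; capitals mark runs of at least 4 G or C. Positions are as the array design gives them, on mm7.
Emx2 probe 1: ttgtCGGGCGaatggtgtctaaaaactgaa
Pax8: ggagttccaggaaacaagaaccacccattt
Pax2: gggtgtgaaccagctCGGGGGGGGtgtttg

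Emx2 (chr19:59386872-59386931), a regulator of urogenital ridge and Müllerian duct growth, was bright on all 8 arrays. Its signals were 5077, 4474, 4236 and 4781 in controls and 4404, 3412, 5326 and 5126 in Gen-treated mice. The groups overlapped, and the difference was −0.04 (SE 0.16, adjusted p = 0.897). At its second probe (chr19:59386325-59386384), controls had 1275, 1330, 1167 and 1245 and Gen-treated mice had 981, 857, 1146 and 907. There every Gen array lay below every control array (difference −0.37, SE 0.12, exact permutation p = 0.0286, the smallest that 4 arrays against 4 allow), but the adjusted p was 0.0847. The probes of this gene thus did not give the same size of difference.

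Pax8 (chr2:24428576-24428635) was detected throughout. Controls had 819, 1222, 1179 and 1275 and Gen-treated mice 867, 817, 1083 and 914. Gen arrays lay mostly in the lower part of the control range, and the difference of −0.28 (SE 0.17) did not pass the test (adjusted p = 0.351). A second Pax8 probe, which was matched to a cDNA clone, was detected on 2 arrays of each group, with 199 and 318 on the first control arrays and 14.6–15.7 on the others, and gives no group level. The other 5 genes listed with Pax8 were Ovgp1 and the general epithelial genes Krt8, Krt18, Epcam and Cdh1. None of the 5 was called. Ovgp1 differed by 0.06, and the range was from −0.31 for Krt8 to 0.30 for Cdh1.

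Pax2 (chr19:44654758-44654816) was dim. Its probe was detected on 2 control arrays and on all 4 Gen arrays, although its signal was not higher in Gen-treated mice: controls had 38.0, 77.8, 61.8 and 69.97, and Gen-treated mice had 54.3, 53.0, 44.8 and 34.6. The difference was −0.38 (SE 0.25, adjusted p = 0.378). The probe holds a run of 8 G, and its design position covers 59 bases for 60 letters; with 68.3% G and C it had the highest share among the 93 probes.

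Lhx1, a LIM-homeodomain factor required in the Müllerian duct epithelium of the embryo, had 94.1–120 in controls and 59.9–100.5 in Gen-treated mice. The groups overlapped by 1 Gen array, and the difference was −0.50 (SE 0.19, adjusted p = 0.122). A noncoding transcript from the opposite strand of the same locus, Lhx1os, is on the array under a clone name that the rule does not take. Its signal was 195 in controls and 41.1 in Gen-treated mice (difference −2.25, SE 0.52, adjusted p = 0.0246), but over detected probes its adjusted p was 0.0747. Emx1, a relative of Emx2 known from the forebrain, had 153–249 in controls and 147–217 in Gen-treated mice (adjusted p = 0.616).

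Dlx5 was the only one of the 38 probes measured on all 8 arrays that was called. Dlx5 is a distal-less factor of bone, placode and genital development, and its signal was lower in the oviduct of Gen-treated mice. Its probe (chr6:6830949-6831008) and that of the noncoding Dlx6as (chr6:6817369-6817428) from the neighboring Dlx6 locus begin as follows, with capitals as before.
Dlx5: gtgttgtgctggtttagaaatcagaaagaa
Dlx6as: ctggacaacggagagctatcaaCCCCaggc

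Dlx5 signals were 389, 457, 235 and 494 in controls and 132, 118, 159 and 141 in Gen-treated mice. Every Gen array was below every control array, and the lowest control array stood apart from the other 3. Dlx5 was 2.77-fold lower in Gen-treated mice (difference −1.47, SE 0.24, adjusted p = 0.0236). It was also the only call among the 54 probes of this group that the test over detected probes took in (adjusted p = 0.0370); that was 1.85% of them, beside 1.11% of all detected probes. The adjusted p was above 0.05 with quantile normalization (0.0570), without scaling (0.0600), with signals under a floor of 65.9 raised to it (0.103), with the replicate number as a block (0.0791) and with the methods' t-test (0.0630). It was also above 0.05 when control array 1 (0.0591) or Gen array 1 (0.0633), 2 (0.0675) or 3 (0.0603) was left out. The differences in those settings were between −1.23 and −1.55. The adjusted p-values with the block, the t-test and these arrays left out were shared with Irx2 and Lhx8 probes described below. Shared values reflect the adjustment over all probes, so they do not show that the Dlx5 call rests on any of these arrays. In whole oviduct, a lower signal from fewer cells that carry the transcript and from less transcript per cell cannot be told apart.

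Dlx6as, whose probe was matched by accession to the RefSeq name Dlx6os2, had 248–453 in controls and 274–426 in Gen-treated mice. It was not called (difference −0.20, SE 0.23, adjusted p = 0.617). Dlx4, best known from placenta and craniofacial tissue, was detected on the 4 Gen arrays (29.7–61.1) and on 1 control array (41.3). Its difference of 1.05 (SE 0.38) did not pass the test (adjusted p = 0.114), and it did so only when control array 4 was left out (1.39, adjusted p = 0.0153). A Dlx2 probe was detected on 1 array, Gen 2. Dlx1 and Dlx3 were at background.

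**Figure D2:**
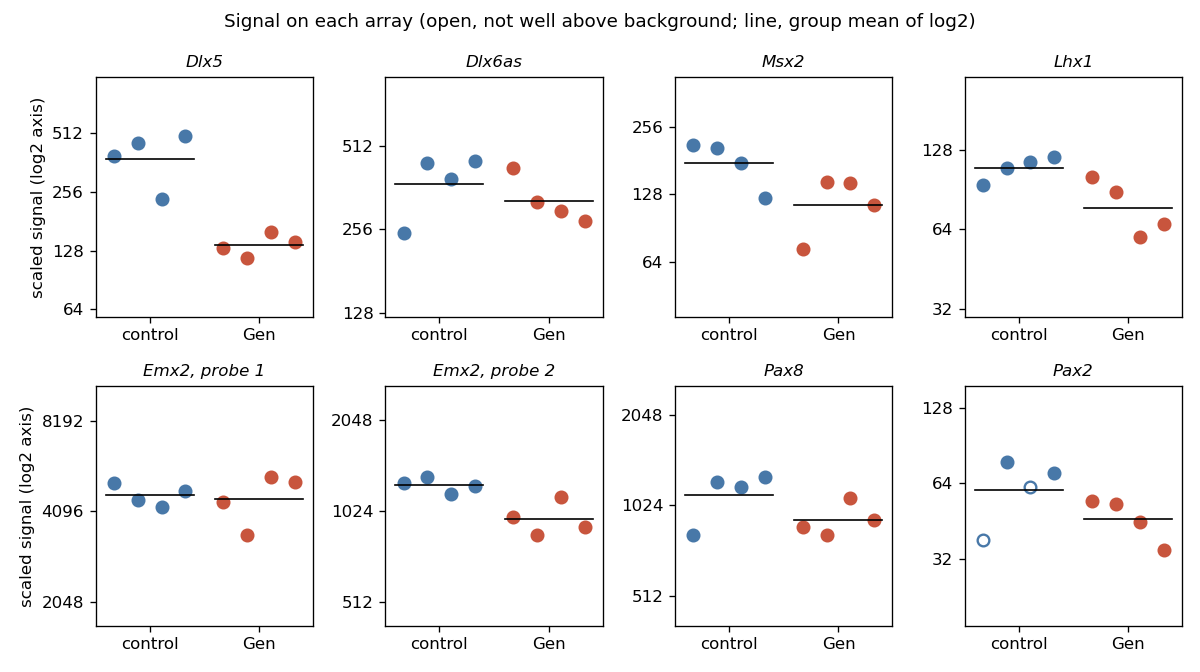
Scaled signal on each array (log2 axis, a separate scale for each panel) for Dlx5, Dlx6as, Msx2, Lhx1, both Emx2 probes, Pax8 and Pax2, with controls in blue and Gen-treated mice in red. Circles are single arrays (open, not detected), ordered by replicate number within a group, and lines are group means of log2 signal; the groups are apart for Dlx5 and for Emx2 probe 2 and overlap in the other panels.

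The Msx genes encode repressors that keep mesenchyme and epithelium undifferentiated, and in the uterus they act in readiness for implantation. All 3 were measured on all 8 arrays and none was called. Msx2 had 123–214 in controls and 72.7–145 in Gen-treated mice (difference −0.61, SE 0.27, adjusted p = 0.182). Msx1 had 1370–2944 and 1566–1914 (adjusted p = 0.333), and its second probe gave a similar difference (−0.32 beside −0.39). Msx3 had 712–1313 and 602–1173 (adjusted p = 0.603). The ranges of each gene overlapped between the groups.

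Of the TALE genes, Pbx2, Pbx3, Pbx4 and Meis1 were not called. Pbx2, Pbx3 and Pbx4 encode partners of Hox proteins and Meis1 a factor that binds with them; each had at least 1 probe detected on all 8 arrays. Pbx2 had 5985–8280 in controls and 5440–6410 in Gen-treated mice (adjusted p = 0.283), Pbx3 had 2052–2430 and 1536–2211 (adjusted p = 0.450), and Pbx4 had 251–491 and 312–477 (adjusted p = 0.862). Meis1 had 3579–4116 in controls and 2778–4549 in Gen-treated mice (difference −0.10), and 0.22 at its second probe. Meis2 and Meis3, which the array files call Mrg1 and Mrg2 and the rule therefore does not take, gave differences of −0.20 and −0.17 (the 2 probes of Meis2) and −0.09, with no call. Among the other TALE factors, the Pknox and Tgif genes, 0 of 4 were called, with a median difference of −0.06 and a range from −0.21 to 0.17.

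Prrx1 and Prrx2 are homeobox genes of connective tissue, and Barx2 acts in muscle and epithelium. Prrx2 had 9684–13030 in controls and 9059–12670 in Gen-treated mice, a difference of 0.01 (SE 0.16, adjusted p = 0.981). For Prrx1, 4 probes were measured on all 8 arrays, with differences from −0.20 to 0.03 and no call. A dim probe of the same gene, detected on the 4 Gen arrays and no control array, was not called (adjusted p = 0.102). Barx2 was lowest on the Gen 2 array at each of its 3 probes (4787 at the brightest, beside 8757–14050 on the other arrays), and it was not called (difference −0.30, SE 0.33, adjusted p = 0.607). Barx1 was at background.

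Irx2 was the Iroquois gene that differed. Iroquois genes encode another branch of the TALE class that patterns heart, nervous system and gonad, and they lie in clusters, with Irx1, Irx2 and Irx4 on mouse chromosome 13. The array holds 3 Irx2 probes, which are set side by side because they did not give the same answer. The first lies at chr13:69564443-69564502, the second within chr13:69563624-69564285, which spans 662 bases for 60 letters, and the third, at chr13:69562330-69562389, is the most 5′ of them.
Irx2 probe 1: tatgagaacttgttgtcatagtatagcttc
Irx2 probe 2: tacctataggaGGGCCaaggtcagcagtgc
Irx2 probe 3: CGGGGatgccttgtgcgaatcaggctcaga

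At Irx2 probe 1 the control arrays gave 8.60, 7.16, 14.0 and 6.09, none detected, and the Gen arrays gave 33.1, 259, 51.5 and 51.1, all detected. Gen 2 was the highest by far, and the other 3 Gen arrays lay close together. Irx2 was at least 1.73-fold higher in Gen-treated mice, where the bound sets the Gen mean against the lowest signal of a detected probe on each control array (or the probe's own signal if higher). The fit gave an adjusted p of 0.0236 over all probes and of 0.0582 over detected probes. Without Gen 2 the bound was 1.11-fold and the adjusted p was 0.0675. It was also above 0.05 without control array 1 (0.0591), Gen array 1 (0.0633) or Gen array 3 (0.0603). Dlx5 had the same adjusted p with each of these arrays left out, so these values alone do not show that the Irx2 call rests on a single array. Other ways of processing ended the call as well: quantile normalization (0.0644), normexp background correction (0.127), the floor (0.830), the replicate block (0.0791) and the methods' t-test (0.0630). The fitted difference fell to 1.09 with normexp and to 0.49 with the floor, and it is no measure of size where the controls were at background.

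Irx2 probe 2 showed the same arrays in the same state. Controls had 5.77–13.3, all at background, and Gen-treated mice had 27.9, 221, 32.8 and 37.3, for a bound of at least 1.31-fold (adjusted p = 0.0257 over all probes, 0.0826 over detected probes). Without Gen 2 it gave no bound above 1, and the call was lost in the same settings and also without control array 2 (0.0615) or 4 (0.0529). Irx2 probe 3, by contrast, was detected on 1 array, Gen 2 (36.2), and its other values were 6.83–15.5 in controls and 4.22–5.79 in Gen-treated mice. Probe 3 had 55.0% G and C, beside 35% at probe 1 and 45% at probe 2.

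The other Iroquois genes were not called. Irx1 was detected on no control array and on 3 Gen arrays, where it was again highest on Gen 2 (130) and otherwise 21.5–51.2 (adjusted p = 0.104). Irx3 had 36.6–150.1 in controls and 55.6–148 in Gen-treated mice, Irx5 had 66.4–229 and 74.1–212, and Irx4 had 51.1–119 and 51.1–97.8; differences were 0.25, 0.14 and −0.16, each smaller than its SE. Irx6 was detected on the Gen arrays only (21.6–37.0, beside 15.6–25.0 in controls) and was not called (adjusted p = 0.203).

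**Figure D3:**
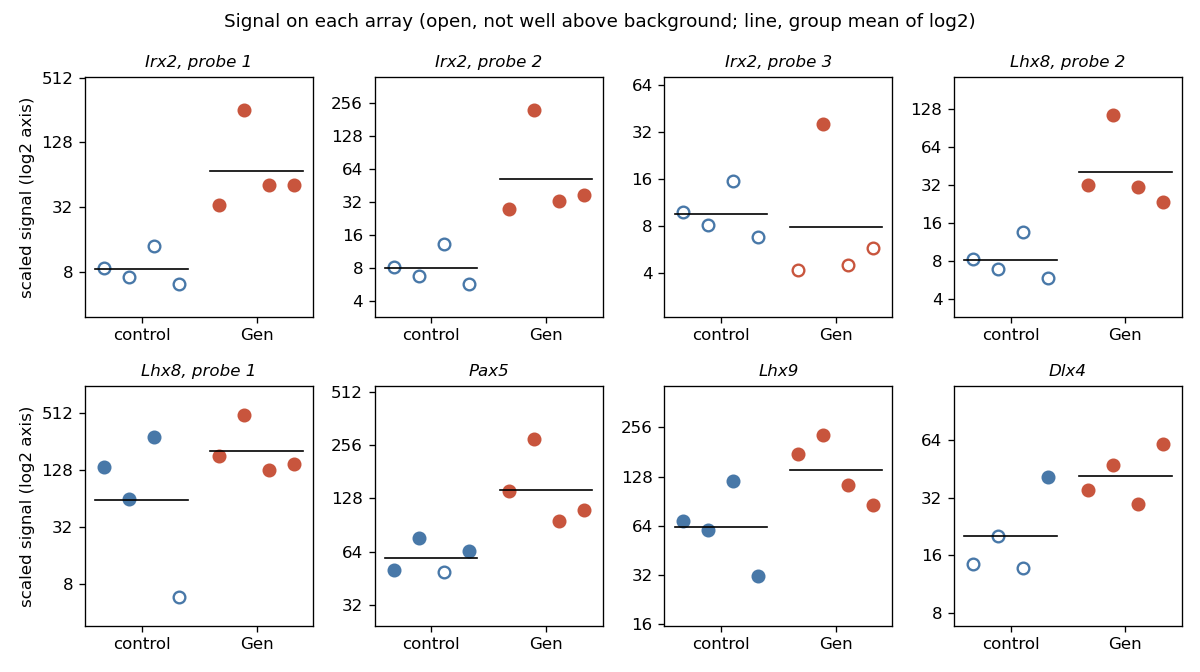
Scaled signal on each array (log2 axis, a separate scale for each panel) for the 3 Irx2 probes, both Lhx8 probes, the Pax5 probe of an RNA clone, Lhx9 and Dlx4, with controls in blue and Gen-treated mice in red. Circles are single arrays (open, not detected) in order of replicate number and lines are group means of log2 signal; the second Gen circle is the highest in every panel except Dlx4, and control circles are open throughout for Irx2 and Lhx8 probe 2.

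Of the LIM-homeobox genes, which carry LIM domains for protein binding beside the homeodomain, Lhx8 was higher in Gen-treated mice at 1 of its 2 probes. Lhx8 is known from oocytes, forebrain and tooth. Both probes lie on chromosome 3 and begin with the letters below.
Lhx8 probe 1: gtgaatttgcaactgaaatttattttgcca
Lhx8 probe 2: ccaataagtcatacctaattccttctttca

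Lhx8 probe 2 (chr3:154215364-154215423) gave 8.29, 6.86, 13.5 and 5.82 on the control arrays, none detected, and 31.9, 113, 31.0 and 23.2 on the Gen arrays, all detected. The groups were apart (adjusted p = 0.0236 over all probes, 0.0682 over detected probes), but the bound was only at least 1.01-fold, and without control array 2 or 4 or Gen 2 no bound above 1 could be given. The adjusted p was above 0.05 with quantile normalization (0.0574), normexp (0.167), the floor (0.830), the block (0.0791) and the methods' t-test (0.0630), and without control array 1 (0.0591) or Gen array 1 (0.0633), 2 (0.0675) or 3 (0.0603). The values with the block, the t-test and these arrays left out were shared with Dlx5, so they do not show that the Lhx8 call rests on a single array. Lhx8 probe 1 (chr3:154214886-154214945), the brighter, did not separate the groups. Its control values were 138, 63.3, 287 and 5.74, the first 3 detected, and its Gen values were 180, 494, 127 and 148 (difference 1.71, SE 1.13, adjusted p = 0.373). Of the controls, 2 lay at or above the lowest Gen array, and on control array 4 the probe was at background.

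Lhx9, a factor of the early gonad, had 68.4, 60.4, 121 and 31.5 in controls and 175, 229, 113 and 85.8 in Gen-treated mice. All were detected; 2 Gen arrays exceeded all controls and the other 2 did not, and the difference of 1.16 (SE 0.45) was not called (adjusted p = 0.133). Lhx6, a gene of forebrain interneurons, had 892–1503 in controls and 1185–1794 in Gen-treated mice (difference 0.43, adjusted p = 0.251). Its dim second probe was detected on no control array and on 3 Gen arrays, Gen 2 the highest at 57.5, and was not called (adjusted p = 0.0827). As the mean of both probes, the dim one included, Lhx6 was called (0.85, adjusted p = 0.026). Lhx2 and Lhx4 were detected on 1 control array each (96.8 and 87.6) and on all Gen arrays, with differences of 0.31 and −0.14, and Lhx3 and Lhx5 were mostly at background. Among the proteins that bind LIM domains (Ldb, Lmo, Ssbp and Rlim), 0 of 10 genes were called, and the 9 measured on all 8 arrays had a median difference of 0.08 and a range from −0.17 to 0.22.

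Pax5, the Pax gene that commits lymphoid precursors to the B-cell lineage, was higher in Gen-treated mice at a probe for an RNA clone from aorta and vein that the array annotation assigns to Pax5 and calls unclassifiable. The probe lies at chr4:44538878-44538937 and begins as shown.
Pax5: atgtaattacagcagtgccaatttgccaaa

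It gave 50.5, 76.3, 48.9 and 64.9 on the control arrays, 3 of them detected, and 141, 276, 94.8 and 110 on the Gen arrays. Every Gen array was above every control array, a 2.40-fold difference (1.26 on the log2 scale, SE 0.33, adjusted p = 0.0368). Over detected probes the adjusted p was 0.1001. Without Gen 2 the difference was 0.94 (SE 0.22, adjusted p = 0.0675), and leaving out control array 1 (0.0884), 3 (0.0906) or 4 (0.0578) or Gen array 1 (0.0781) or 3 (0.0603) also took the adjusted p above 0.05. So did quantile normalization (1.16, 0.118), normexp (0.57, 0.180), the floor (1.05, 0.276), the replicate block (1.26, 0.0791) and the methods' t-test (1.26, 0.0842), each given with its difference and adjusted p. Without Gen 2 the adjusted p of 0.0675 was shared with Dlx5, Irx2 probes 1 and 2 and Lhx8 probe 2, as was that of 0.0603 without Gen array 3. Such a shared value reflects the adjustment over all probes, so it does not show that a single gene's call rests on the array left out. The SE of Pax5 fell from 0.33 to 0.22 without Gen 2. The probe for the Pax5 mRNA itself was at background on all 8 arrays, so the call rests on the clone's probe alone.

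B-cell markers were highest on the same arrays as the Pax5 probe. Of 6 markers, 4 were detected on all 8 arrays, with a median difference of 0.75 (from −0.04 for Ebf1 to 1.45 for Ms4a1), and none was called. Their mean log2 signal was 8.09, 9.04, 8.86 and 9.06 in controls and 9.66, 10.58, 9.08 and 8.63 in Gen-treated mice, with Gen 2 above all other arrays and Gen 1 next, as for the Pax5 probe. Cd79b, a chain of the B-cell receptor complex, had 988–1750 in controls and 3167, 5999, 1985 and 1904 in Gen-treated mice (adjusted p = 0.119), with no overlap. Cd79a and Blk were not detected on most control arrays. Their part in the Pax5 result was not tested. The remaining Pax genes gave no call apart from probes at background: a Pax6 probe, of a gene of eye and pancreas, was detected on the Gen arrays only (28.9–56.1, beside 19.96–30.2 in controls, adjusted p = 0.158).

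The called genes with a promoter in the RefSeq-derived table (GRCm38.p6, a later build than that of the probe positions) are shown from 250 bases before to 50 after the transcript start, on the strand of the gene, since their probes were highest on the same array; capitals mark CG dinucleotides. They are Irx2 at chr13:72628570-72628869 on the plus strand, Lhx8 at chr3:154330511-154330810 on the minus strand and Pax5 at chr4:44710645-44710944 on the minus strand.
Irx2 promoter: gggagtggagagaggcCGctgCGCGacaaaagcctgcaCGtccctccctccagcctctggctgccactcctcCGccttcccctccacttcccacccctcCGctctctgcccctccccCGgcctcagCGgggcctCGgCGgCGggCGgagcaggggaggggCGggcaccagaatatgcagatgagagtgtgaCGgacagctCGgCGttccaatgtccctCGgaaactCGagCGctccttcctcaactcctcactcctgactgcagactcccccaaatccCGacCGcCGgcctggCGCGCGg
Lhx8 promoter: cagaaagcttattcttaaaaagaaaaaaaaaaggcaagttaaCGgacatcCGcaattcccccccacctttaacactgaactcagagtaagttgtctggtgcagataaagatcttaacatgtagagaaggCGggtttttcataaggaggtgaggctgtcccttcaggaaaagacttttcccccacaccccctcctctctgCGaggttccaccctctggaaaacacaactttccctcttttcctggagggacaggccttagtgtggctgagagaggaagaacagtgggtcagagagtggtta
Pax5 promoter: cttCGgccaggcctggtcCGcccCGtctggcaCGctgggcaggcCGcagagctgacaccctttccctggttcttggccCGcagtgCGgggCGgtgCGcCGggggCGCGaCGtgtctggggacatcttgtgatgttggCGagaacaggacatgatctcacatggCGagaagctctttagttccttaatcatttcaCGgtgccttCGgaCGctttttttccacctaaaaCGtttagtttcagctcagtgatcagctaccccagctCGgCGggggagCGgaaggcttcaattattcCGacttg

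The sequences differ in their CG content. The Irx2 promoter holds 25 CG dinucleotides and that of Pax5 23, counts reached by 18.4% and 21.5% of the 32851 promoters in the table, whereas the Lhx8 promoter holds 4, reached by 68.6%. Across the 41 genes of this group found in the table (52 promoters) the median was 17.5, beside 7 for all promoters. The estrogen response half-site, searched as GGTCA or its reverse complement TGACC, occurred once in the Lhx8 promoter and not in the other two; it occurred in 23.1% of the promoters of these genes and in 40.5% of all promoters.

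Nkx genes are best known as regulators of heart, brain, pancreas and gut. Nkx2-6, of the pharynx and early heart, had 70.9, 115, 90.4 and 85.2 in controls and 167, 133, 105 and 173 in Gen-treated mice. Of its Gen arrays 3 exceeded all controls, and the difference of 0.67 (SE 0.21) was just outside the threshold (adjusted p = 0.0701); its second probe was detected on 1 array. Nkx6-2 had 71.9–312 in controls and 89.7–344 in Gen-treated mice, Nkx6-1 had 86.4–159 and 97.1–142, and Nkx2-4 had 92.3–165 and 82.6–143, with differences of 0.54, −0.19 and −0.30 and no call. Nkx1-2 and Nkx2-5 were detected on all 4 Gen arrays and on 2 and no control arrays, and were not called (adjusted p = 0.160 and 0.226). Nkx2-2, Nkx2-3 and Nkx6-3 were detected on 1, 3 and 1 Gen arrays and on no control array. Nkx2-1 and 1 of the probes of Nkx3-2, which the files give as Titf1 and Bapx1, were at background throughout.

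**Figure D4:**
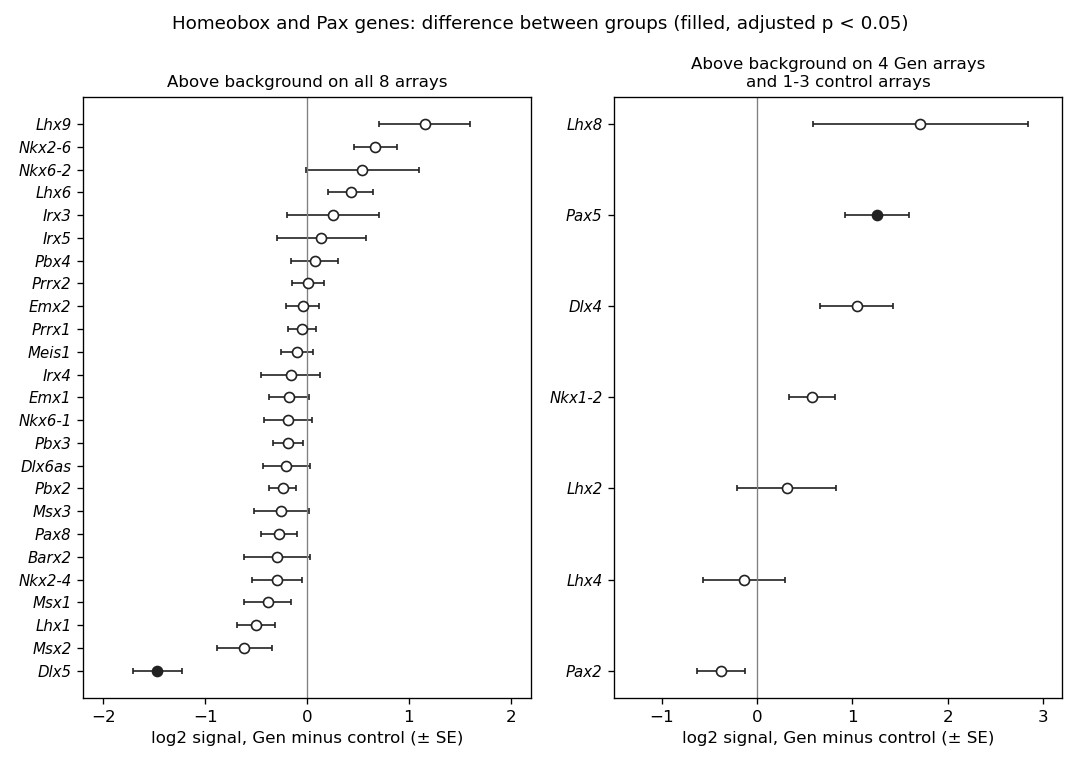
Difference in log2 signal, Gen minus control, with its SE (bars) from limma on 4 arrays per group, for those genes described here that were measured on all 8 arrays (left) and for those detected on all 4 Gen arrays and 1–3 control arrays (right), each by its brightest probe. Filled circles had an adjusted p under 0.05 over all probes: Dlx5 (−1.47) and Pax5 (1.26). Genes detected on no control array are not plotted, as they have no measured difference.

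Most members were not called. Of the 38 probes measured on all 8 arrays, 1 (2.63%) was called, beside 1.93% of all 24920 such probes called higher and 2.44% called lower. Of the 38, 33 (86.8%) had a difference within 0.5 on the log2 scale, beside 88.7% of all such probes, and 25 (65.8%) had a difference below 0, beside 50.9%. The median difference was −0.18, beside −0.01 over all such probes. Without scaling between arrays these medians were 0.06 and 0.24, so the members lay as far below the rest, while the sign of the difference turned for Dlx6as, Emx1, Emx2, Meis1, Nkx6-1, Pbx2, Pbx3 and Prrx1. The groups did not overlap for 3 of the 38 probes (Dlx5 and Emx2 probe 2 among them), or 7.89%, beside 12.4% of all such probes. Members were noisier than the array at large, with a median SE of 0.22 beside 0.16. The Gen 2 array, which was highest for Irx2, Lhx8 and Pax5, was the highest of all arrays for 9 of the 54 probes detected on all 4 arrays of a group (16.7%), beside 14.3% of all such probes. Of the 7 probes measured on all Gen arrays and no control array 3 were called higher, beside 28.8% of all 539 such probes, and of the 9 measured on 1–3 control arrays 2 were, beside 5.3% of all 3455. Such probes entered through the group in which they were high, and nothing is read from these counts.

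Among 16 Müllerian duct factors outside the members, a list chosen with earlier results known, 4 were called lower and none higher over all probes: Wnt7a, an epithelial Wnt ligand of the oviduct and uterus (531 in controls and 122 in Gen-treated mice, difference −2.13, SE 0.58, adjusted p = 0.0421), Wnt5a of the mesenchyme (355 and 233, −0.61), the progesterone receptor Pgr (375 and 240, −0.64) and the cofactor Dach1 (3928 and 2634, −0.58). For Wnt7a the groups overlapped, with 295 on Gen array 3 and 254 on control array 1. None of the 4 passed over detected probes (adjusted p from 0.0751 to 0.110). Esr1, the estrogen receptor (−0.41, adjusted p = 0.0793, with no overlap between the groups), and Wnt4 (0.08, adjusted p = 0.892) were not called. The 15 factors measured on all 8 arrays had a median difference of 0.02 and a range from −2.13 to 1.20, with 8 of them above 0. Their list means were 10.23–10.32 on the log2 scale in controls and 9.97–10.16 in Gen-treated mice, without overlap. Of the 6 Groucho corepressors, which many homeodomain repressors recruit, Tle1 was called lower (13810–21340 in controls and 8659–10140 in Gen-treated mice, difference −0.98, SE 0.16, adjusted p = 0.0236, and 0.0349 over detected probes), and the other 5 differed by −0.17 to 0.24. Beside both lists, 2.44% of all probes measured on all 8 arrays were called lower. Over detected probes 1.11% were called in either direction. The lists are short, and nothing is read from their counts.

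The tissue was checked against its markers. Ovgp1, Foxj1, Acta2 and Dcn, of secretory cells, ciliated cells, smooth muscle and stroma, were detected on all 8 arrays, and no gene of these 4 lists was called. All 6 smooth muscle genes had a difference below 0 (median −0.30), with list means of 16–16.45 on the log2 scale in controls and 15.79–16.2 in Gen-treated mice. Medians were −0.03 for ciliated cells, −0.03 for stroma, 0.12 for mesothelium, 0.22 for endothelium and −0.09 for stratified squamous epithelium, whose Krt6a was at background, as were Myog and Myf5 of skeletal muscle (median −0.48). The Gen 2 array, highest for Irx2, Lhx8, Pax5 and the B-cell list, had the lowest list mean for ciliated cells (13.66, beside 14.04–14.38 on the other arrays). It was also lowest for the secretory list, which includes Pax8 (15.22, beside 15.33–15.55). Whether cell composition bears on Dlx5, Irx2, Lhx8 or Pax5 was not tested.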

How the data were processed

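RNA from 4 control and 4 Gen oviduct samples of CD-1 mice was labeled with Cy3 and hybridized to 8 Agilent arrays. The values the authors deposited came from Agilent Feature Extraction 9.5, and the processed signal is a linear intensity adjusted for background and spatial trend and not scaled between arrays. The series matrix of intensity values that the authors deposited was equal to them in 45018 of 45018 spots. The authors' later Rosetta Resolver step was not applied.

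Spots marked as outliers and 1639 control spots were left out, log2 signals of a probe's spots were averaged, and arrays were set to the same 75th percentile. Groups were compared with limma 3.58.1 in R 4.3.3 (lmFit, eBayes), with Benjamini-Hochberg adjustment over 41173 probes; matplotlib 3.10.9 drew the plots. Single genes were also tested by a 2-sided exact permutation of 4 against 4 arrays. The members and gene lists were chosen with earlier results of these data known. Genes named are Emx2, Pax8, Pax2, every member with a probe well above background on all 4 arrays of a group, represented by its brightest probe, called members with a bound, and from the lists the called genes with Wnt4, Wnt7a, Esr1 and Pgr; other members and other probes are named where the account of all members needs them. Results for 2 member genes are not reported here, but their probes are in the counts. Names were matched to RefSeq by accession for 73 member probes and by symbol for 20. Control arrays had 25359–28934 probes well above background and Gen arrays 29527–31481, and the number of arrays limits the precision.

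The steps were tested on simulated data from 41040 probes for the comparison of Gen with control: 34% of 2-fold and 78% of 4-fold changes were recovered, with 4 unchanged probes called. The simulation changed 200 probes and held no shift of probes at background. In the data 6674 probes were called, many of them at background, so these shares do not carry over to the fit used here. Alternatives were quantile normalization, no scaling, normexp (offset 50), 2 filters on dim probes, outlier spots kept, a floor (65.9), an intensity trend, the replicate number as a block, the methods' t-test, the study's filters (unadjusted p under 0.01, 2-fold, mean signal of 100), other probes of a gene and each array left out. With no mm7 genome used here, probes were not assigned to exons.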

Additional observations from a re-analysis of the deposited data

Results flagged for a closer look

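Of 61 groups of 4 arrays examined (both groups of the 25 reported genes measured on all 8 arrays and the Gen group of the 11 measured on all Gen arrays but fewer control arrays), 3 held an array far from the other 3, by the gap to the nearest of them as a share of the group's range against Dixon's critical value. Chance gives such a value in about 1 in 20 groups. All 3 were control groups. Msx3 had 712 on control array 3 and 1226–1313 on the other 3 (gap 0.888 of the range). Nkx2-4 had 92.3 on control array 1 and 158–165 on the others (0.925), and Nkx6-1 had 86.4 on control array 1 and 146–159 on the others (0.860). None of the 3 genes was called in the comparison of Gen with control.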

How the results depend on the processing

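The number of the 93 probes called (25, 5 higher and 20 lower in Gen) depended on the probes at background. It was 0 with quantile normalization, with the floor, with the replicate block and with the methods' t-test, in each with 0 higher and 0 lower. It was 6 without scaling, with 0 lower. It was 1 with normexp and with either filter on dim probes, with 0 higher and 1 lower (Dlx5), and 3 with the study's filters, with 2 higher and 1 lower. Leaving out 1 array gave 0 to 24 called, 0 to 4 higher and 0 to 20 lower, with 0 called without control array 1, Gen array 1, Gen array 2 or Gen array 3. At an unadjusted p under 0.05, limma gave 39 probes, limma with the block 37 and the methods' t-test 32. Of limma's 39 probes, 21 were at background on every array. The share of all probes at that threshold was not computed, so nothing is read about the members from these or the later unadjusted counts. Of the probes measured on all 8 arrays the 1 call was kept with normexp and both filters and became 0 with quantile normalization, no scaling, the floor, the block and the t-test, and 0 to 1 with an array left out; at an unadjusted p under 0.05, limma gave 6, the block 4 and the t-test 5. The 5 calls in the gene lists became 0 with quantile normalization, no scaling, the floor, the block and the t-test (with an unadjusted p under 0.05, limma gave 7, the block 7 and the t-test 9), 1 with normexp and both filters, and 0 to 3 with an array left out. Outlier spots kept and an intensity trend moved no count by more than 1.5 times. The median difference of the probes measured on all 8 arrays was 0.06 without scaling, which shifted the median of all probes by as much, and −0.18 to −0.11 with an array left out.

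The sign of the difference turned without scaling for Dlx6as (0.04), Emx1 (0.07), Emx2 (0.20), Meis1 (0.14), Nkx6-1 (0.05), Pbx2 (0.00), Pbx3 (0.05) and Prrx1 (0.19). It turned for Lhx4 without control array 3 (0.30), and with each array left out in turn Lhx4 ranged from −0.34 to 0.30. It turned at another probe of Meis1 (0.22), Msx3 (0.09), Pbx2 (0.05) and Prrx1 (0.72, at background in controls and so no measured size), and as the mean of all probes for Meis1 (0.06) and, with probes at or near background in the mean, Nkx1-2 (−0.09), Nkx2-6 (−0.52) and Pax6 (−0.86). No other reversal occurred among the 687 pairs of a gene and a setting, apart from 20 changes of sign within 1 SE of genes that were not called. As the mean of all probes, Irx2 (1.82, adjusted p = 0.0927) and Pax5 (0.41, adjusted p = 0.285) lost their calls. In that setting Lhx6 (0.85, adjusted p = 0.026) and Nkx2-4 (−0.76, adjusted p = 0.0212) were called, each with a probe at or near background in the mean. The cause of these changes was not tested. Same-numbered arrays did not deviate together (r of their deviations from the group means −0.079, 0.105, −0.021 and −0.183 over 24920 probes), so no pairing by replicate number was seen. No array correlated best with its own number: the best matches of 1, 2, 3 and 4 were 4, 3, 2 and 1. The replicate block also uses up degrees of freedom, so a call lost with it is no sign of pairing. Signal near background limits the genes measured on the Gen arrays alone: they have bounds or no fold change.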
